A study of Mus musculus with 9 samples.

Results

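The genes described here are 10 chaperones and proteases of the mitochondrion: the chaperones Hspd1, Hspe1, Hspa9, Trap1 and Dnaja3 and the protease genes Lonp1, Clpp, Clpx, Yme1l1 and Afg3l2. They were listed by symbol, as known effectors of the mitochondrial unfolded protein response, by a rule that sets no threshold on a measured value. Each symbol matched 1 of the 52661 gene rows of the count table, and all 10 were among the 18408 genes left for testing by a filter on low counts. RNA had been sequenced from 9 libraries of C57BL/6 mouse embryonic fibroblasts, a connective-tissue culture, in 3 groups of 3. All the cells were immortalized with T/t antigen, so every group carries that viral transformation. The wild type cells keep Ctr1, the copper importer of the plasma membrane encoded by Slc31a1. The Ctr1-null cells have the genotype Ctr1 -/- and are titled FloxedCtr1, without a statement of the Cre or of the number of clones. The Ctr1-null + BCS cells have the same genotype and were given the copper chelator bathocuproine disulfonic acid (BCS) for 48 h, at 500 uM by the sample labels and at 500 mM by the series record. BCS was not given to wild type cells in these libraries, so its effect can be read only against Ctr1-null cells. Every cell type and every cell contributes to such bulk RNA, and fewer cells of a type cannot be told apart from less RNA per cell.

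Most mitochondrial proteins are made in the cytosol, threaded into the organelle unfolded and folded inside it. Hspa9, the matrix Hsp70, pulls the incoming chain in, with Dnaja3 as a J-protein partner that delivers clients. Hspd1 and Hspe1 form the barrel and the lid of the matrix folding chamber, and Trap1 is the Hsp90 of the matrix. Chains that cannot fold are degraded by proteases driven by ATP: Lonp1 and the pair of Clpp (the protease) and Clpx (its unfoldase) in the matrix, and Afg3l2 and Yme1l1 in the inner membrane, facing the matrix and the intermembrane space. In the mitochondrial unfolded protein response, genes of this kind are transcribed more, and the factors Atf5, Ddit3 (CHOP) and Atf4 have been linked to it. Copper is needed in the mitochondrion for the assembly of cytochrome c oxidase.

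Promoter stretches of 4 genes show the sequence beside the genes described most below. The first lies upstream of Hspe1 and of a RefSeq start of Hspd1, the genes with the lowest BCS levels relative to wild type among the chaperones. Another is the upstream region of Lonp1, the only gene whose BCS libraries lay above both other groups. Trap1 is added because its window holds the only cAMP response element found. RefSeq windows of 250 bases before to 50 bases after a start (GRCm38.p6) were found for 8 of the 10 genes and not for Hspa9 or Afg3l2. The first line below is the plus strand of chr1:55088053-55088082, which lies between a RefSeq start of Hspe1 at 55088148 on the plus strand and one of Hspd1 at 55087932 on the minus strand. The capitals mark both copies of the heat shock element TTCNNGAA. Both copies lie after another RefSeq start of Hspd1, at 55088243, whose own window held 0 heat shock elements. The second line is the minus strand of chr16:4077839-4077868 before the start of Trap1, with the element TGACGTCA in capitals. The third line is the minus strand of chr17:56626904-56627153, the 250 bases before the start of Lonp1, with no capitals because no searched motif was found in it.
Hspd1 and Hspe1: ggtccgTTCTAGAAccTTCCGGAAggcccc
Trap1: gtcgcgcgccaTGACGTCActgagccgccc
Lonp1: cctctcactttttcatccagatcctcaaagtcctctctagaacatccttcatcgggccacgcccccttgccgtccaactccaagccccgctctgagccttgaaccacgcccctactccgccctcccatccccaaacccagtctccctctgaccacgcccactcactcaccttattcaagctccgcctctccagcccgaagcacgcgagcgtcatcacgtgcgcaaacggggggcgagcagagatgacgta

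Motifs were searched on both strands as exact letters: the heat shock elements TTCNNGAA and GAANNTTC, the C/EBP-ATF element TGATGNAAT, the cAMP response element TGACGTCA and the NRF1 site GCGCANGCG. TTCNNGAA occurred at 2 places in the Hspe1 window and in the Hspd1 window that shares this region, which 0.524% of the 32851 promoter windows of the same length reach. A GAANNTTC match joins and overlaps them in both windows. Elsewhere a single TTCNNGAA was found for Clpp, 33 bases after its start, and 8.52% of all windows hold that element. GCGCANGCG was found at 2 places for Dnaja3, once for Clpx and once in the other Hspd1 window, against 6.25% of all windows, and TGACGTCA for Trap1 against 1.79%. TGATGNAAT was found in none of the 8 genes and in 0.965% of all windows. Lonp1 and Yme1l1 held none of these letters in their windows. A match describes the letters and not the binding of a factor.

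The libraries held 38962036 to 57206337 counts, and Slc31a1 was at 54.8 to 56.1 CPM (counts relative to the TMM-scaled library total) in wild type, 1.4 to 3.9 in Ctr1-null and 1.7 to 3.2 with BCS, which fits each library's label. Fibroblast markers summed to 15079 to 19416 CPM over all libraries with 2 of the 10, Thy1 and Lum, under 1 CPM everywhere. The sum hides differences of single markers within groups. In replicates 1, 2 and 3, Pdgfra was at 65.3, 6.11 and 6.62 CPM in wild type and Col3a1 at 11.1, 81.6 and 73.3 in Ctr1-null. Dcn passed 1 CPM only in wild type replicate 1 (2.31) and Ctr1-null replicate 3 (1.57). Summed fat cell markers were at 24.3 to 30.1 CPM in wild type, 58.6 to 85.3 in Ctr1-null and 67.2 to 81.6 with BCS, with Adipoq under 1 CPM throughout. Wild type and BCS libraries also did not overlap for macrophage and blood markers (5.62 to 12.5, 9.38 to 17.6 and 12.5 to 22.1 CPM in the same order, 3 of 5 under 1 CPM everywhere), muscle markers (0.622 to 1.08, 1.53 to 4.32 and 3.31 to 8.60, 4 of 5 under 1) and epithelial markers (165 to 193, 151 to 197 and 128 to 164, 3 of 5 under 1). The part of these marker levels in the results below was not tested. Wild type replicate 1 stood apart from the others of its group: the first principal component held 46.2% of the variance, and replicates 2 and 3 scored 67.1 and 63.3, while it scored -2.04, within the Ctr1-null range of -32.0 to 9.05. Whether the replicates were separate cultures is not said in the labels, so a p-value here measures the spread between these libraries and no more.

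None of the 10 genes changed past the threshold in any of the 3 comparisons (quasi-likelihood test of edgeR, p adjusted by Benjamini-Hochberg over all genes tested, threshold 0.05). In Ctr1-null against wild type 0 of 10 passed, against 0.0109% of all genes. In Ctr1-null + BCS against Ctr1-null 0 of 10 passed, against 0.0543% of all genes. For Ctr1-null + BCS against wild type, where 15.8% of all genes passed, 0 of 10 passed as well. At an unadjusted p under 0.05 the counts were 0, 1 (Lonp1) and 2 (Hspd1 and Afg3l2) of 10, beside 17.6%, 14.7% and 32.9% of all genes. DESeq2 called 0, 0 and 1 of the 10, the last being Hspd1. It called 991 and 621 genes in all in the first comparisons and 21.3% of all genes in BCS against wild type. With limma-voom 0 were called in each. The comparisons share libraries pairwise, so their values are set side by side and not counted as independent.

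The intervals show how large a change these libraries leave possible. In the fit of all 9 libraries none of the 30 intervals (10 genes, 3 comparisons, 95%) reached a 2-fold change. Their bounds ran from -0.93 to 0.49 on the log2 scale. These bounds depend on the libraries used. Without wild type replicate 1, Hspd1 in BCS against wild type was at -0.65 ± 0.18 (SE), further below 0 than with all libraries. The interval of that fit is not given here, so a 2-fold decrease of Hspd1 is not excluded for it. A 1.5-fold decrease lay within the interval for Hspd1 in all 3 comparisons and for Hspe1 in both comparisons with wild type, and for no other gene. Standard errors ran from 0.07 for Yme1l1 to 0.18 for Hspd1.

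**Figure D1:**
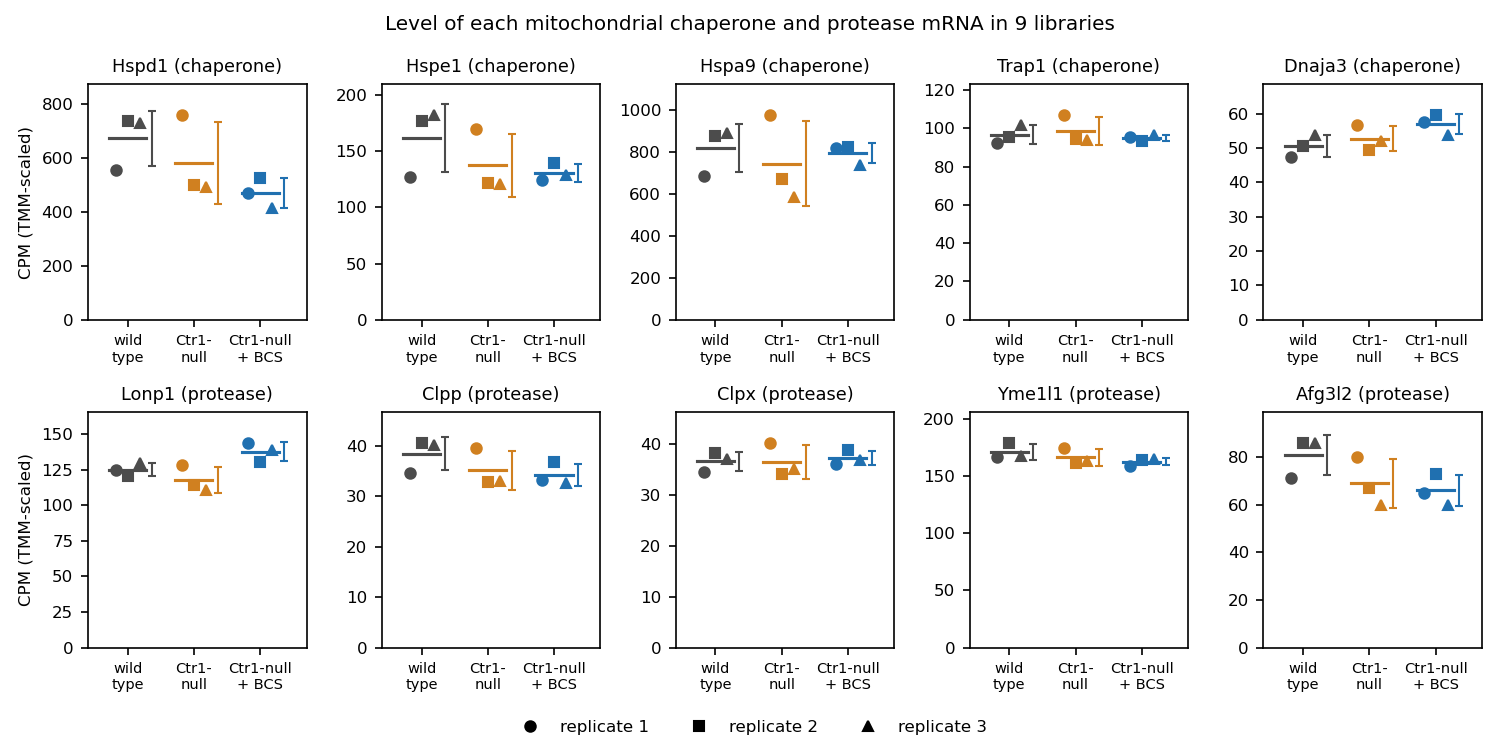
Level of each gene in TMM-scaled CPM (vertical axis, linear from 0) by group (horizontal axis); symbols are single libraries by replicate number, horizontal lines are group means and the bars beside them are ± 1 SD (n = 3). Ctr1-null replicate 1 is the highest of its group for all 10 genes, and Lonp1 is the only gene whose 3 BCS libraries lie above all 6 others.

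Hspd1, the subunit of the folding chamber (chromosome 1, 55077835 to 55088243, minus strand, 12 exons in its longest coding transcript), was the gene with the lowest BCS values relative to wild type. Its level in replicates 1, 2 and 3 was 555.9, 734.9 and 729.9 CPM in wild type, 758.2, 498.2 and 490.4 in the Ctr1-null libraries and 470.7, 525.6 and 415.3 CPM with BCS. All BCS libraries lay below all wild type libraries, while the Ctr1-null libraries overlapped both groups. The log2 fold change was -0.21 ± 0.18 (SE) in Ctr1-null against wild type (edgeR adjusted p = 0.567), -0.31 ± 0.18 with BCS against Ctr1-null (adjusted p = 0.470) and -0.52 ± 0.18 with BCS against wild type (adjusted p = 0.0833, unadjusted 0.0186, interval -0.93 to -0.11). Without wild type replicate 1 the last value was -0.65 (edgeR adjusted p = 0.0259). Without Ctr1-null replicate 1, which is in neither group compared, it was -0.52 (edgeR adjusted p = 0.0264). Leaving out a library also redid the filter, the scaling and the adjustment, with 18835 and 18858 genes tested in these fits. No filter gave an adjusted p of 0.0482, DESeq2 0.0322 and a fit of only both groups compared 0.0451, so that the call for Hspd1 depends on these choices. All genes called made up 31.0% without wild type replicate 1, 18.9% without Ctr1-null replicate 1, 8.25% with no filter, 21.3% in DESeq2 and 14.6% with only both groups.

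Hspe1, the lid of the chamber, starts beside Hspd1 on the opposite strand, and the annotated genes overlap head to head by 112 bases (chromosome 1, 55088132 to 55088243), where unstranded reads cannot be assigned. It was at 127.1, 176.7 and 182.0 CPM in wild type, 170.0, 122.1 and 120.6 in the Ctr1-null libraries and 124.0, 139.9 and 128.6 CPM with BCS. Wild type replicate 1 lay among the libraries without Ctr1, and Ctr1-null replicate 1 lay above it, so the groups overlapped in all 3 comparisons. The log2 fold changes were -0.23 ± 0.16 for Ctr1-null (edgeR adjusted p = 0.471), -0.07 ± 0.16 for BCS against Ctr1-null (adjusted p = 0.876) and -0.31 ± 0.16 for BCS against wild type (adjusted p = 0.221). Without wild type replicate 1 the last became -0.46 (edgeR adjusted p = 0.0348), in a fit that called 31.0% of all genes. Processed pseudogenes of Hspd1 (5) and Hspe1 (6) held at most 24 and 2 counts in a library.

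Hspa9, the motor of protein import, had the widest range of CPM among the chaperones in Ctr1-null cells. Its levels were 688.4, 878.9 and 892.9 CPM in wild type, 977.6, 672.6 and 589.0 in the Ctr1-null libraries and 818.4, 826.7 and 739.6 CPM with BCS. The BCS libraries lay within the wild type range, and the Ctr1-null libraries held both the highest and the lowest of the 9. The log2 fold changes were -0.14 ± 0.18, 0.09 ± 0.18 and -0.04 ± 0.18 in the 3 comparisons, in the order above (edgeR adjusted p = 0.714, 0.855 and 0.890).

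Trap1 and Dnaja3 varied little. Trap1 was at 92.2 to 101.9 CPM in wild type, 94.1 to 106.8 in Ctr1-null and 93.2 to 96.2 with BCS, and its intervals stayed between -0.22 and 0.19 on the log2 scale. Dnaja3 was at 47.5, 50.7 and 53.9 CPM in wild type, 56.7, 49.5 and 52.0 in the Ctr1-null libraries and 57.7, 59.6 and 53.8 CPM with BCS. With BCS it had 0.17 ± 0.08 against wild type (edgeR adjusted p = 0.178) and 0.11 ± 0.08 against Ctr1-null (adjusted p = 0.552), and the groups overlapped in both. With library size alone in place of TMM the first became 0.27 (adjusted p = 0.0301), under a scaling that moved the median of all genes by 0.10 and called 15.5% of them. The annotated Dnaja3 gene overlaps Vasn on its own strand and Coro7 on the other, so part of its counts could be split between them.

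Among the proteases, Lonp1 had the highest BCS values relative to Ctr1-null, which also held for all 10 genes. Lonp1, the matrix protease that removes oxidised proteins (chromosome 17, 56614297 to 56626887, minus strand, 18 exons), was at 124.8, 120.4 and 129.5 CPM in wild type, 127.9, 113.8 and 110.7 in the Ctr1-null libraries and 143.7, 130.3 and 138.8 CPM with BCS. Every BCS library was above every other library, the nearest being BCS replicate 2 (130.3 CPM) and wild type replicate 3 (129.5 CPM). BCS against Ctr1-null gave 0.23 ± 0.08 on the log2 scale, a 1.17-fold higher mean (edgeR unadjusted p = 0.0151, adjusted p = 0.232, interval 0.05 to 0.40). Against wild type it was 0.14 ± 0.08 (edgeR adjusted p = 0.240). With library size alone it was 0.24 (adjusted p = 0.0416), where 15.5% of all genes were called. Ctr1-null against wild type gave -0.09 ± 0.08 (adjusted p = 0.569). A higher group without overlap was found for 1 of 10 genes in BCS against Ctr1-null, where 13.4% of all genes had one, and for 1 of 10 against wild type, where 20.0% did. The count over the 10 genes was thus no higher than the shares over all genes.

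Afg3l2, which forms the inner membrane protease facing the matrix, was at 71.2, 85.7 and 85.8 CPM in wild type, 80.0, 67.1 and 59.8 in the Ctr1-null libraries and 65.0, 72.8 and 60.0 CPM with BCS. Replicate 1 was lowest in wild type and highest in Ctr1-null, a pattern shared by all of the 10 genes but Lonp1. The log2 fold changes were -0.23 ± 0.12 for Ctr1-null against wild type (edgeR adjusted p = 0.358), -0.06 ± 0.12 for BCS against Ctr1-null (adjusted p = 0.850) and -0.30 ± 0.12 for BCS against wild type (adjusted p = 0.131). Without wild type replicate 1 the last was -0.39 (edgeR adjusted p = 0.0424), in a fit that called 31.0% of all genes.

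Yme1l1, the protease facing the intermembrane space, had the smallest spread of the 10 genes, with a coefficient of variation of 3.82% over the 9 libraries. It was at 166.8, 179.2 and 168.2 CPM in wild type, 174.8, 161.2 and 163.8 in the Ctr1-null libraries and 159.3, 164.3 and 164.7 CPM with BCS. The BCS libraries lay just below the wild type libraries without overlap, at -0.07 ± 0.07 on the log2 scale (edgeR adjusted p = 0.468), and the estimate was 0.03 with library size alone. With Hspd1 that made 2 of 10 genes lower without overlap in BCS against wild type, beside 17.1% of all genes. In Ctr1-null against wild type no gene of the 10 was free of overlap in either direction, where 9.49% of all genes were higher and 8.62% lower, and none was lower without overlap in BCS against Ctr1-null, where 10.9% were.

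Clpp and Clpx, the protease and its unfoldase, had narrow ranges. Clpp was at 34.7 to 40.6 CPM in wild type, 32.9 to 39.6 in Ctr1-null and 32.6 to 36.8 with BCS, and Clpx at 34.6 to 38.2, 34.1 to 40.2 and 36.1 to 38.8. Clpp had -0.17 ± 0.10 in BCS against wild type (edgeR adjusted p = 0.279), and Clpx had 0.03 ± 0.08 (adjusted p = 0.859). Their groups overlapped in all 3 comparisons, and the intervals ran from -0.39 to 0.19 for Clpp and from -0.19 to 0.22 for Clpx.

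**Figure D2:**
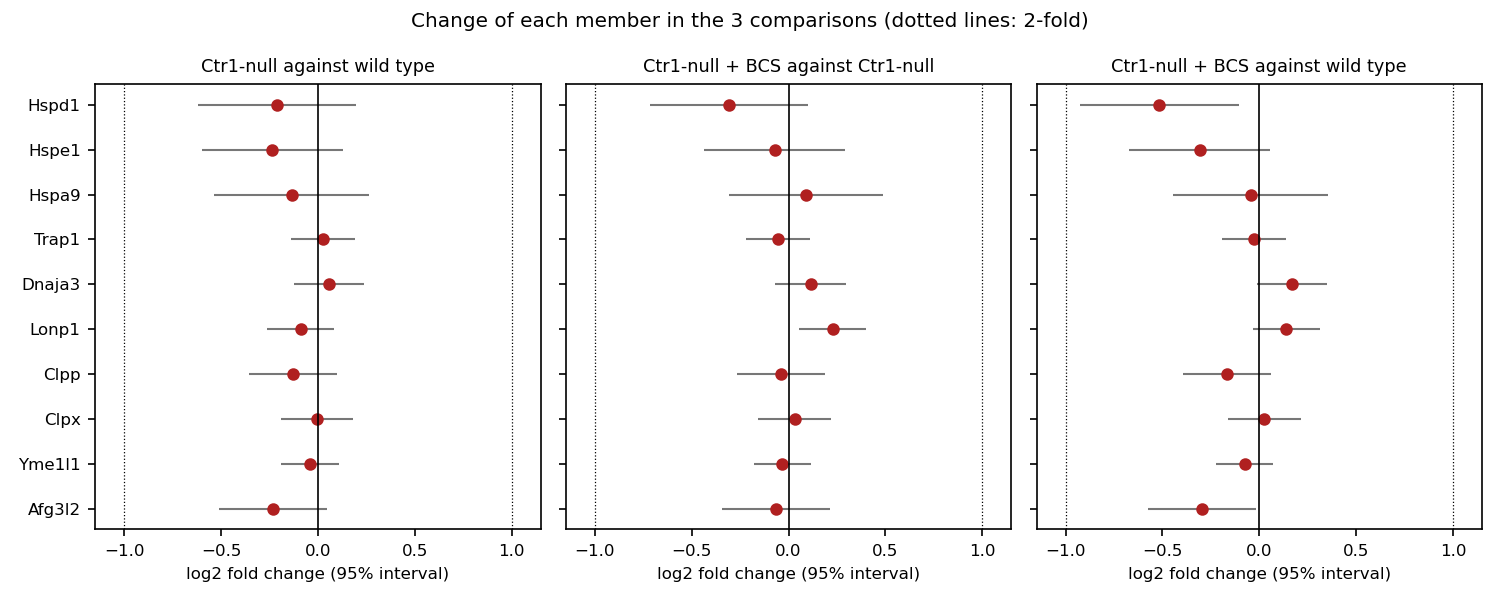
Log2 fold change (horizontal axis) of each gene in the 3 comparisons, with points for the estimate, lines for the 95% interval and dotted lines at a 2-fold change. In this fit of all 9 libraries no interval reaches a dotted line. The intervals that exclude 0 are those of Lonp1 for BCS against Ctr1-null and of Hspd1 and Afg3l2 for BCS against wild type.

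The median of the set lay slightly below the median of all genes. Its median log2 fold change was -0.11 in Ctr1-null against wild type, -0.04 in BCS against Ctr1-null and -0.06 in BCS against wild type, with medians over all genes tested of 0.01, 0.00 and 0.01. Estimates were below 0 for 8, 6 and 7 of the 10 genes. Summed over the 10, the level was 1943, 2401 and 2421 CPM in wild type, 2532, 1846 and 1749 in the Ctr1-null libraries and 2004, 2088 and 1866 CPM with BCS. The groups overlapped, and both the highest and the lowest sum came from Ctr1-null libraries.

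Replicates within a group differed from each other across the set. Wild type replicate 1 was the lowest of its group for 9 of the 10 genes, all but Lonp1, and Ctr1-null replicate 1 was the highest of its group for 10 of 10. The mean log2 difference of the 10 genes from the wild type mean was -0.14, 0.06 and 0.08 in the wild type libraries, 0.11, -0.20 and -0.23 in Ctr1-null and -0.11, -0.05 and -0.16 with BCS. In the same libraries the mean for 18 genes of mitochondrial protein import was -0.19, 0.10 and 0.09, then 0.03, -0.24 and -0.26, then -0.18, -0.09 and -0.31. For 10 cytosolic heat shock genes it was -0.14, 0.06 and 0.08, then 0.03, -0.21 and -0.24, then -0.28, -0.21 and -0.27. For 11 genes of mitochondrial mass it was -0.17, 0.09 and 0.09, then 0.15, -0.09 and -0.16, then -0.09, -0.04 and -0.22. All these lists thus shared a low wild type replicate 1 and a high Ctr1-null replicate 1. A list of 7 stress signalling genes did not share the low wild type replicate 1, at 0.09, -0.09 and 0.00 in wild type. The part of these libraries in the fold changes was examined only by leaving each library out.

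The spread also differed between the genes. Over the 9 libraries the coefficient of variation was 22.6% for Hspd1, 17.7% for Hspe1, 15.7% for Hspa9 and 14.0% for Afg3l2. It was 9.37% for Clpp, 8.47% for Lonp1, 7.45% for Dnaja3, 5.55% for Clpx and 4.86% for Trap1. The 3 genes with the widest spread were the 3 most abundant per length.

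Per kilobase of the longest coding transcript, the wild type means were 278 CPM for Hspd1, 269 for Hspa9 and 209 for Hspe1, and the ranges of these 3 chaperones overlapped. Lonp1 (42.3), Trap1 (41.6), Clpp (39.1) and Yme1l1 (36.4) followed, each overlapping its neighbour. Afg3l2 (26.2), Dnaja3 (19.1) and Clpx (12.7) came last, each without overlap with the next. With the longer merged exons as length, Trap1 and Clpp moved above Lonp1 and Afg3l2 moved to the last place at 8.19, while the first 3 kept their order at 255, 190 and 110. The step from the abundant chaperones to the rest was seen with both lengths.

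Ratios within a library showed another order of the groups. The ratio of Hspa9 to Hspd1 counts was 1.24, 1.20 and 1.22 in wild type, 1.29, 1.35 and 1.20 in Ctr1-null and 1.74, 1.57 and 1.78 with BCS. All BCS libraries lay above the 6 others, and wild type replicate 1 did not stand apart on this scale (wild type mean 1.22, SD 0.0214, n = 3). Hspd1 to Hspe1 was 4.37, 4.16 and 4.01 in wild type, 4.46, 4.08 and 4.07 in Ctr1-null and 3.80, 3.76 and 3.23 with BCS, where the BCS libraries were the 3 lowest. Other ratios were made as well. Between BCS and the other libraries Clpx to Clpp, Yme1l1 to Afg3l2 and Lonp1 to Clpp overlapped. Lonp1 to Hspd1 and Hspa9 to Hspe1 did not, the latter barely (lowest with BCS 5.751, highest without 5.750). Hspd1 made up 28.6 to 30.6% of the summed CPM of the 10 genes in wild type, 27.0 to 29.9% in Ctr1-null and 22.2 to 25.2% with BCS. These ratios were picked after the values had been seen and compare counts not divided by length, so they carry no test and show only unequal change between a pair of genes. Values scaled by the authors gave mean ratios within 1 SD of these in every group.

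**Figure D3:**
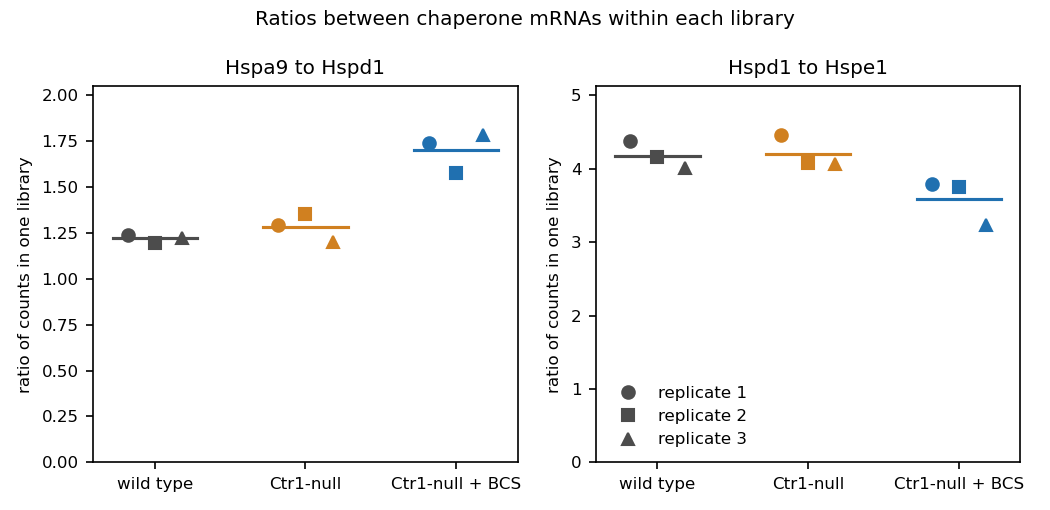
Ratio of Hspa9 to Hspd1 counts (left) and of Hspd1 to Hspe1 counts (right) in each library, on linear axes from 0, by group; lines are group means. With BCS the Hspa9 to Hspd1 ratio is 1.57 to 1.78 against 1.20 to 1.35 in the other 6 libraries, and the Hspd1 to Hspe1 ratio is 3.23 to 3.80 against 4.01 to 4.46.

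Atf5 and Ddit3, which act upstream in mitochondrial stress, were higher with BCS, and 5 other genes of that list did not pass. Of 7 genes for stress signalling and transcription, 2 were higher in BCS against Ctr1-null (median 0.29), where 0.038% of all genes were called higher, and the same 2 in BCS against wild type (median 0.39), where 8.56% were. In Ctr1-null against wild type none of the 7 passed (median -0.08, unadjusted p under 0.05 for 0 and DESeq2 adjusted p of 0.238 or more), and Ddit3 had the smallest p at -0.18 ± 0.09 (edgeR adjusted p = 0.319). Atf5, a factor linked to the mitochondrial unfolded protein response, was at 37.9, 33.1 and 37.0 CPM in wild type, 46.3, 33.6 and 37.1 in the Ctr1-null libraries and 89.6, 85.6 and 98.7 CPM with BCS. It rose by 1.23 ± 0.12 on the log2 scale against Ctr1-null (edgeR adjusted p = 0.0117) and by 1.34 ± 0.12 against wild type (adjusted p = 0.00164). Ddit3, a factor of the stress of unfolded proteins, was at 40.0, 34.7 and 37.3 CPM in wild type, 29.5, 35.2 and 33.8 in the Ctr1-null libraries and 56.4, 60.4 and 62.0 CPM with BCS. It rose by 0.86 ± 0.09 (edgeR adjusted p = 0.0148) and 0.68 ± 0.09 (adjusted p = 0.00549). Cebpb, a factor that pairs with Ddit3, was at 31.8, 16.5 and 18.2 CPM in wild type, 26.4, 28.1 and 39.4 in the Ctr1-null libraries and 35.4, 34.5 and 45.1 CPM with BCS, and had 0.79 ± 0.25 against wild type (edgeR adjusted p = 0.0594). DESeq2 (0.0125), limma-voom (0.0435) and no filter (0.0219) called it there. Without wild type replicate 1 it was called with BCS against wild type (1.13, edgeR adjusted p = 0.00291) and in Ctr1-null against wild type (0.84, adjusted p = 0.0151). In that fit 1 of the 7 was called in Ctr1-null against wild type, 3 in BCS against Ctr1-null and 3 in BCS against wild type, beside 17.3%, 0.972% and 31.0% of all genes.

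The calls of Atf5 and Ddit3 against wild type held in 19 of 19 alternatives. Against Ctr1-null, that of Atf5 held in 15 of 19 and was lost without Ctr1-null replicate 2 or 3 or BCS replicate 1 or 3, with adjusted p up to 0.109. Ddit3 held in 11 of 19, and its log2 fold change stayed between 0.79 and 0.91. Its call was lost without any single one of the 6 libraries compared or without wild type replicate 3 (adjusted p of 0.0533 to 0.109). Atf4, the central factor of the integrated stress response, was at 222.4, 277.0 and 274.8 CPM in wild type, 255.9, 209.7 and 191.8 in the Ctr1-null libraries and 337.8, 357.4 and 319.4 CPM with BCS. It had 0.63 ± 0.12 against Ctr1-null (edgeR adjusted p = 0.0924) and 0.39 ± 0.12 against wild type (adjusted p = 0.0594). The first passed in 3 alternatives: without wild type replicate 1 (0.62, adjusted p = 0.0401), with no filter (0.0304) and in DESeq2 (0.00151). The second passed in 6: without Ctr1-null replicate 1 (0.39, edgeR adjusted p = 0.0298), with upper-quartile factors (0.0323), library size alone (0.0156), the stricter filter (0.0356) or only both groups (0.0448), and in DESeq2 (0.0464). Atf4 and Cebpb were named after their values were seen.

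**Figure D4:**
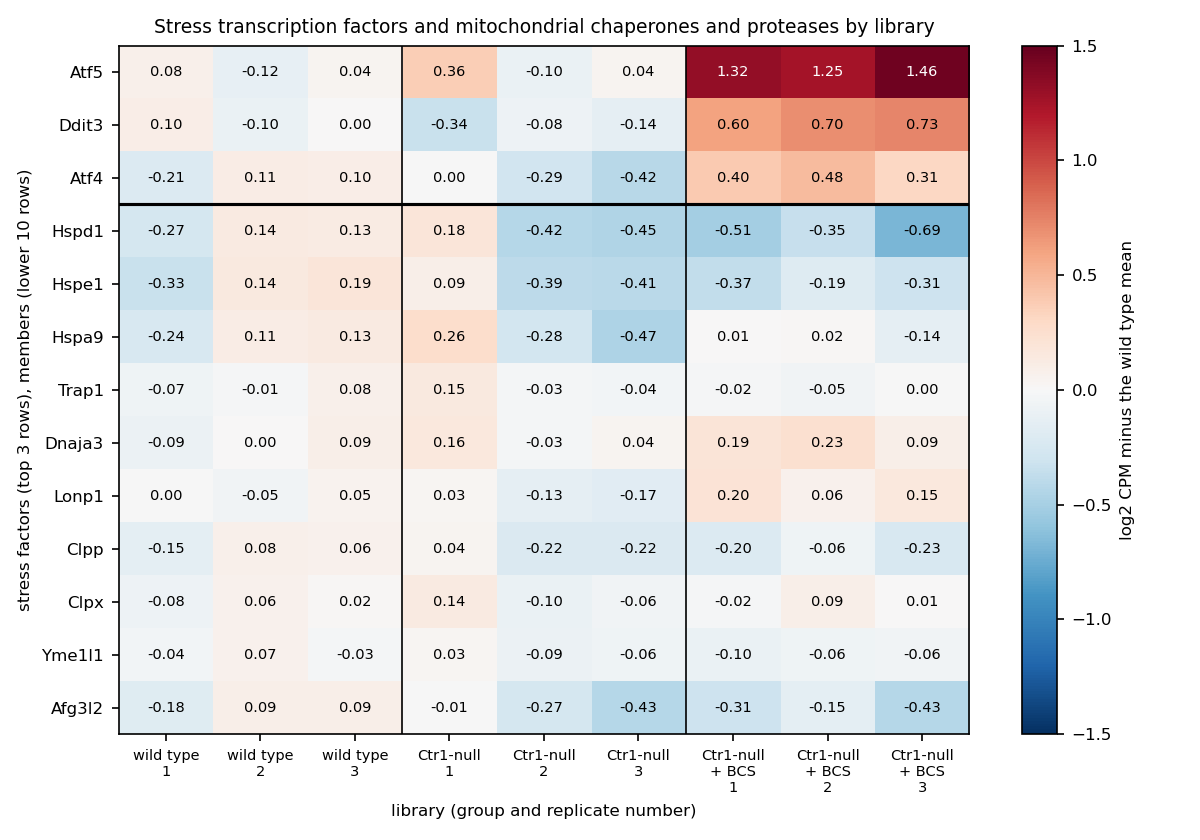
Log2 CPM of Atf5, Ddit3 and Atf4 (top) and of the 10 chaperones and proteases (below) in each library, minus the gene's wild type mean; colours run from -1.5 (blue) to 1.5 (red) and the number is printed in each cell. The BCS columns are 0.31 to 1.46 for the 3 factors and -0.69 to 0.23 for the 10 genes, and low values are shared by Ctr1-null replicates 2 and 3 and wild type replicate 1 for Hspd1, Hspe1, Hspa9 and Afg3l2.

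Few other genes of mitochondrial protein handling passed the test. The counts of BCS against wild type below stand beside 8.56% of all genes called higher and 7.28% lower, and edgeR gave them. Of 8 other mitochondrial chaperones and co-chaperones 1 was called higher and 0 lower (median -0.05), namely Hscb, a J-protein of iron-sulphur cluster assembly, at 4.8 to 5.1 CPM in wild type, 5.5 to 5.7 in Ctr1-null and 6.7 to 8.7 with BCS (0.62 ± 0.13, edgeR adjusted p = 0.0150). Of 13 other proteases and peptidases 0 were higher and 1 lower (median -0.01), namely Htra2, a serine protease of the intermembrane space. It was at 84.1 to 99.4 CPM in wild type, 77.1 to 92.2 in Ctr1-null and 67.7 to 82.4 with BCS (-0.37 ± 0.11, edgeR adjusted p = 0.0482). Of 18 import genes 0 were higher and 1 lower (median -0.19), namely Tomm40, the pore of the outer membrane. Its level was 72.1 to 77.9 CPM in wild type, 66.7 to 83.5 in Ctr1-null and 54.9 to 62.1 with BCS (-0.34 ± 0.10, edgeR adjusted p = 0.0435). Ctr1-null libraries overlapped both groups for Htra2 and only wild type for Tomm40. None of the 3 scaffold genes of the prohibitin family passed (median -0.32), and Phb had the smallest p (-0.33 ± 0.12, edgeR adjusted p = 0.0887). The unadjusted p was under 0.05 for 2 of 3, beside 32.9% of all genes, and none was called by DESeq2 or limma-voom.

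The call of Htra2 held in 8 of 19 alternatives, that of Tomm40 in 7 and that of Hscb in 15. For Hscb it was lost without wild type replicate 2 or 3 or BCS replicate 1 or 3. Htra2 lost it without any of these 4 and without Ctr1-null replicate 2 or 3. Tomm40 lost it without any of those 6 and without BCS replicate 2. Both also lost it with upper-quartile factors, library size alone or the authors' factors, Htra2 with only both groups and Tomm40 with no filter (edgeR adjusted p of 0.0508 to 0.0886). With wild type replicate 1 left out, 3 of 8, 4 of 13, 7 of 18 and 1 of 3 were called in BCS against wild type, where 31.0% of all genes were, and 1 import gene in Ctr1-null against wild type, where 17.3% were. With all libraries, none of these 4 lists had a gene called by edgeR in Ctr1-null against wild type or in BCS against Ctr1-null. Unadjusted p-values under 0.05 numbered 0 of 8, 0 of 13, 2 of 18 and 0 of 3 in the first and 1, 2, 2 and 0 in the second. Among all genes 17.6% and 14.7% had one. DESeq2 called 1 import gene in the first, with 991 genes called in all, and 1 co-chaperone in the second, with 621. With limma-voom none was called. The smallest p in Ctr1-null against wild type was that of Timm44, which tethers Hspa9 to the import channel, for the import genes (-0.24 ± 0.06, edgeR adjusted p = 0.118) and that of Oma1, a stress protease of the inner membrane, for the proteases (0.21 ± 0.10, adjusted p = 0.308).

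A list of 11 genes related to mitochondrial mass was read as well. These are RNA levels, some of them of regulators, and the amount of mitochondria itself cannot be read from them. In BCS against wild type 1 was called higher and 1 lower (median -0.18). Ppargc1a, the coactivator of mitochondrial biogenesis, was at 0.948 to 1.91 CPM in wild type, 2.85 to 4.54 in Ctr1-null and 3.05 to 3.50 with BCS (1.29 ± 0.28, edgeR adjusted p = 0.0180). Slc25a5, an ADP/ATP carrier, was at 328 to 437 CPM in wild type, 314 to 415 in Ctr1-null and 226 to 282 with BCS (-0.63 ± 0.15, adjusted p = 0.0224). Both calls were lost when wild type replicate 2 or 3 or BCS replicate 1 or 3 was left out, while over all alternatives the estimates stayed between 1.09 and 1.65 for Ppargc1a and between -0.76 and -0.53 for Slc25a5. None of the 11 was called in the other comparisons by edgeR, where 3 and 1 had an unadjusted p under 0.05 and DESeq2 called 1 and 0. Among all genes 17.6% and 14.7% had such a p, and DESeq2 called 991 and 621 genes. With wild type replicate 1 left out, 8 of 11 were called in BCS against wild type and 5 of 11 in Ctr1-null against wild type, beside 31.0% and 17.3% of all genes.

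Cytosolic heat shock genes, which share the heat shock element with Hspd1 and Hspe1 as background knowledge, were lower in 4 of 10 cases and higher in 0 in BCS against wild type (median -0.39). Hspa1b, the inducible Hsp70, was at 134 to 149 CPM in wild type, 99.1 to 105 in Ctr1-null and 92.6 to 106 with BCS and fell by 0.53 ± 0.08 on the log2 scale (edgeR adjusted p = 0.00573), in 19 of 19 alternatives. Its near-identical copy Hspa1a had 0.12 ± 0.12 (adjusted p = 0.527), and reads of that pair may have been split between them. Hsph1, a nucleotide exchange factor of Hsp70, fell by 0.53 ± 0.13 (edgeR adjusted p = 0.0276), and Hsp90ab1, the constitutive Hsp90, by 0.47 ± 0.14 (adjusted p = 0.0486). Dnaja1, a J-protein of Hsp70, was the other called gene. Hsph1 and Dnaja1 lost their calls without wild type replicate 2 or 3 or BCS replicate 1 or 3, and Hsp90ab1 without any of these or Ctr1-null replicate 2 or 3 or BCS replicate 2. Hsp90ab1 also lost its call with upper-quartile factors, library size alone or the authors' factors (edgeR adjusted p of 0.0536 to 0.0567). None was called in edgeR in Ctr1-null against wild type (median -0.17, unadjusted p under 0.05 for 2) or in BCS against Ctr1-null (median -0.23, unadjusted for 5), where DESeq2 called 1 and 0. Among all genes 17.6% and 14.7% had an unadjusted p under 0.05, and DESeq2 called 991 and 621 genes. With wild type replicate 1 left out, 6 of 10 were called in BCS against wild type and 2 of 10 in Ctr1-null against wild type, beside 31.0% and 17.3% of all genes. Hsf1, the factor that binds the element, had -0.04 ± 0.08 in BCS against wild type (adjusted p = 0.759).

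Across the 9 libraries the genes most like Hspd1 in log2 CPM were Ssrp1 (Pearson r = 0.994), Psmd12 (0.993), Rangap1 (0.991), Set (0.991) and Bpnt1 (0.991), of 18407 genes compared. Ssrp1, a histone chaperone subunit, was at 431 to 509 CPM in wild type, 401 to 508 in Ctr1-null and 356 to 405 with BCS. Among the 10 genes, Clpp came closest at rank 412 (r = 0.944), then Afg3l2 at 471 (0.939), Hspe1 at 831 (0.911), Yme1l1 at 1883 (0.824) and Hspa9 at 3323 (0.687). Trap1 (0.647), Clpx (0.551), Dnaja3 (-0.02) and Lonp1 (-0.17) followed at ranks 3696, 4488, 8638 and 9734. Its neighbour Hspe1, which shares an upstream region with a RefSeq start of Hspd1, was therefore not the gene nearest to Hspd1 in these libraries. The 9 points come from 3 groups and share the contrast between replicates described above, so the r are given as a description with no p.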

How the data were processed

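Total RNA of 9 libraries was sequenced. The authors deposited estimated counts for each gene as whole numbers without normalisation, and these were tested. Their second deposited table holds scaled signal values, which are those counts divided by a factor for each gene and library whose making is not given in the sources used here. Per the submitters' processing notes, FastQC, STAR, Salmon and DESeq2 were used with build GRCm38, without versions or roles, and a strand setting is not given in the sources used here. Of 52661 rows, 52566 matched an identifier in GENCODE M21 and 95 did not. Library totals ran from 38962036 to 57206337 counts.

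The counts were filtered (filterByExpr, minimum count 10, minimum total 15), given TMM factors and fitted by quasi-likelihood over 3 groups and 9 libraries (edgeR 4.0.16, R 4.3.3). There were 6 residual degrees of freedom, and the common biological variation (BCV) was 0.169. Tests were 2-sided with Benjamini-Hochberg adjustment over all 18408 genes and called at 0.05. A standard error is the log2 fold change over the square root of F, and intervals use the t distribution. The fit was tested on simulated data with the same spread for every gene, and the outcome is not given here. No outlying library was simulated, so that test does not cover how the calls depend on single libraries. Alternatives were other scalings, no filter or a stricter one (1 CPM in 3 libraries), DESeq2 1.42.0, limma-voom 3.58.1, only 2 groups, a replicate block, leaving out each library and, for levels, the length of merged exons. Ratios from the scaled table were added after the data were seen. Plots used matplotlib 3.10.9 (Python 3.11.15).

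The 10 genes, the other lists and the motifs were chosen with earlier results of these data known. The rule for named genes took all 10, Slc31a1, the called genes of each other list (at most 3 in each direction by size, or the gene with the smallest p) and the 5 genes nearest to Hspd1. Atf4, Cebpb, Hsf1, Hspa1a and Dnaja1 in BCS against wild type are not covered by it and were added with their values known. Promoter sequences are RefSeq's. No library was left out.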

Additional observations from a re-analysis of the deposited data

How the results depend on the processing

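Of the calls on the 10 genes, only those in BCS against wild type depended on the processing: 0 were called in the other 2 comparisons under all 19 alternatives. In BCS against wild type 2 were called with library size alone (Dnaja3 and Lonp1), beside 15.5% of all genes. Hspd1 was the 1 called with no filter, DESeq2 and only both groups compared, beside 8.25%, 21.3% and 14.6% of all genes. Leaving out 1 library gave 0 to 3. The most, 3, came without wild type replicate 1 (Hspd1, Hspe1 and Afg3l2), where 31.0% of all genes were called. With library size alone the median of all genes in BCS against wild type moved by 0.0986.

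Over all genes, the calls in Ctr1-null against wild type numbered 2, and 4 with DESeq2 size factors, upper-quartile factors, library size alone, the authors' factors or the stricter filter, 265 with no filter, 991 with DESeq2, 6 with limma-voom, 1 with only both groups and 1 to 3254 when leaving out 1 library. In BCS against Ctr1-null they numbered 10, with 114 for no filter, 621 for DESeq2 and 0 to 183 when leaving out 1 library. In BCS against wild type they numbered 2916, with 568 to 5840 when leaving out 1 library. Among the fits that left out 1 library, the highest count came without wild type replicate 1 in each comparison. The 10 genes had 1413 or more counts in each library. Their intervals rest on a spread fitted over all 3 groups, and the part of depth in their width was not tested.

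With the replicate number as a block, 1 gene was called in Ctr1-null against wild type, 2 in BCS against Ctr1-null and 1543 in BCS against wild type, and 0 of the 10 genes in each. Of the other genes named as called, Ddit3 against Ctr1-null (edgeR adjusted p = 0.0930) and, with BCS against wild type, Htra2 (0.0928), Tomm40 (0.0666), Slc25a5 (0.0549), Hsph1 (0.0662), Dnaja1 (0.0572) and Hsp90ab1 (0.106) were not called there. The deviations of libraries with the same number correlated at -0.319 to 0.275 (median -0.0633, 9 pairs). Those of libraries with different numbers correlated at -0.287 to 0.412 (median 0.0542, 18 pairs). Libraries with the same number were thus not more alike by this measure. Whether they were made together cannot be decided from these correlations, because the pairs share libraries.

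Signs turned only for small estimates. In Ctr1-null against wild type, Clpx gave 0.0342 with upper-quartile factors, 0.0459 with library size alone, 0.0134 with the stricter filter and 0.00366 with only both groups, and Yme1l1 0.00994 with library size alone. In BCS against Ctr1-null, Clpp gave 0.0138 and Yme1l1 0.0156 with library size alone, and Clpx -0.0468 with the authors' factors, while Slc31a1 gave 0.00193 with limma-voom. In BCS against wild type, Trap1 gave 0.0165 with upper-quartile factors, and with library size alone Hspa9 gave 0.0589, Trap1 0.0753 and Yme1l1 0.0255, and Clpx gave -0.0490 with the authors' factors. The cause was not tested.

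When leaving out 1 library, signs turned for these ranges of log2 fold change. In Ctr1-null against wild type they were -0.380 to 0.00913 for Hspa9, -0.0361 to 0.0671 for Trap1 and -0.0816 to 0.0421 for Clpx. In BCS against Ctr1-null they were -0.165 to 0.109 for Hspe1, -0.0599 to 0.335 for Hspa9, -0.0904 to 0.0106 for Trap1, -0.101 to 0.0572 for Clpp, -0.0161 to 0.108 for Clpx, -0.0566 to 0.00312 for Yme1l1, -0.163 to 0.0569 for Afg3l2 and -0.367 to 0.337 for Slc31a1. In BCS against wild type they were -0.164 to 0.0202 for Hspa9, -0.0651 to 0.0146 for Trap1 and -0.0200 to 0.0567 for Clpx.

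Per kilobase of merged exons the levels were 190 for Hspa9, 110 for Hspe1, 28.6 for Lonp1, 37.5 for Trap1, 31.4 for Clpp, 21.4 for Yme1l1, 8.19 for Afg3l2, 13.0 for Dnaja3 and 10.5 for Clpx, since that length is longer for each gene.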
